A study of Homo sapiens with 4 samples.

Results

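The plasminogen activators, their receptor and inhibitors, tissue factor and the protein C receptors described here were chosen by name around PLAT, on TPM (a level per transcript length, scaled to the same total in each library) of the comparison of niraparib with DMSO. TPM in these same libraries therefore chose them, and their differences are given as a description with no test. Of the 9 genes named, 8 were measured, namely PLAT, PLAU, PLAUR, SERPINE2, F3, TFPI2, THBD and PROCR, among 16717 entries in all. TFPI was not analysed here. RNA-seq was performed on 2 libraries of Cal-62 cells treated with niraparib, an inhibitor of PARP1 and PARP2, and 2 libraries of Cal-62 cells treated with DMSO, the vehicle. Cal-62 is a line from an anaplastic thyroid carcinoma, and the study names an effective concentration of niraparib without tying it, or a duration, to these libraries. Whether the replicates are separate cultures is not stated, so p-values measure only the spread between these libraries, which may be technical.

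Blood clotting and the breakdown of clots are run by secreted and membrane-bound proteases, their receptors and their inhibitors. Tissue factor starts coagulation when it meets factor VII, and thrombomodulin and the endothelial protein C receptor turn thrombin towards the activation of the anticoagulant protein C. Tissue-type and urokinase-type plasminogen activators cut plasminogen into plasmin, which dissolves fibrin and is also used by tumor cells to degrade matrix, and serpins and Kunitz-type inhibitors hold these proteases in check.

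The libraries summed to between 994264 and 995353 TPM, and their depth in reads is unknown. Of 7 thyroid markers PAX8 was at 207 and 196 TPM in the niraparib libraries, against 189 and 191 TPM in the DMSO libraries. TG, TSHR, NKX2-1 and SLC5A5 were not analysed here. THBD, PROCR and tissue-type plasminogen activator are known from endothelium. Of 8 endothelial markers, CDH5 and KDR were measured, none reached 1 TPM, and their sum was 0.60 and 0.27 TPM with niraparib and 0.39 and 0.51 TPM with DMSO. The fibroblast list summed to 143 and 137 TPM with niraparib and 63.1 and 65.3 TPM with DMSO, nearly all of it COL1A1, at 143 and 137 TPM with niraparib and 63.1 and 64.1 TPM with DMSO. Only 2 of its 5 markers were measured. The monocyte list, with 3 of 5 markers measured, summed to 5.03 and 4.88 TPM with niraparib and 3.21 and 3.24 TPM with DMSO. Nearly all of that sum was CD14, at 4.82 and 4.43 TPM with niraparib and 2.79 and 3.07 TPM with DMSO. CSF1R and LYZ were below 1 TPM in every library. The mesenchymal list (4 of 4 measured) summed to 4086 and 4118 TPM with niraparib and 3179 and 3175 TPM with DMSO, and the epithelial list (6 of 6) to 3292 and 3235 TPM with niraparib and 2834 and 2811 TPM with DMSO. The markers within each list did not all go the same way. FN1 and VIM were higher with niraparib, CDH2 was lower (17.3 and 18.0 against 18.2 and 18.6 TPM) and ZEB1 overlapped. KRT19, CLDN4 and KRT8 were higher with niraparib, and EPCAM overlapped. KRT18 was lower, at 1200 and 1175 TPM against 1301 and 1265 TPM with DMSO, and CDH1 stayed below 1 TPM. Of 4 platelet markers ITGA2B was measured, at 0.92 and 2.11 TPM with niraparib and 0.39 and 0.86 TPM with DMSO. The part of these lists in the results was not tested. In bulk libraries, a change in the share of cells that express a gene and a change in RNA per cell cannot be told apart.

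The promoters of 6 of the genes were matched in RefSeq (GRCh38.p14), and the 250 bases before the start of each were searched on both strands for the letters of 5 motifs. For each gene only the first listed start was searched, which may not be its main start, and any other starts are not covered. These were AP-1 (TGANTCA), the GC box, NF-kB in a stricter and a looser form, the E-box and the TATA box. PLAT and THBD were not matched. The AP-1 letters were found in 3 of the 6 promoters, those of PLAUR, TFPI2 and F3, and in 6.6% of 35116 promoters of the same length. These 3 are shown because AP-1 letters are shared by PLAUR and TFPI2, which were higher with niraparib, and by F3, which was lower. They lie at chr19:43670170-43670419 (PLAUR), chr7:93890754-93891003 (TFPI2) and chr1:94541760-94542009 (F3), all on the minus strand. Each sequence is given from 5′ to 3′ on the strand of its gene and ends at the base before the start. Capitals mark matches to the motifs other than the looser NF-kB form.
PLAUR: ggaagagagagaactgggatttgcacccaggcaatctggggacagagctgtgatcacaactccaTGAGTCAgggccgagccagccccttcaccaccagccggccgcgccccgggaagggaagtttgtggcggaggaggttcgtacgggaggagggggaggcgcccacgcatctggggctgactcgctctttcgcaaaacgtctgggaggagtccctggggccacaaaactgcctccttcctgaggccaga
TFPI2: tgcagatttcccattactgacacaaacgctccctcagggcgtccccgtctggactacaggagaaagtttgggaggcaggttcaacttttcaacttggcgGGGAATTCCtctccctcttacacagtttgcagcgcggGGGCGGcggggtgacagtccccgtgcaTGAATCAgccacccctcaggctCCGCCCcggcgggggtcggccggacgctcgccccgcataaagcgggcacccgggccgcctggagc
F3: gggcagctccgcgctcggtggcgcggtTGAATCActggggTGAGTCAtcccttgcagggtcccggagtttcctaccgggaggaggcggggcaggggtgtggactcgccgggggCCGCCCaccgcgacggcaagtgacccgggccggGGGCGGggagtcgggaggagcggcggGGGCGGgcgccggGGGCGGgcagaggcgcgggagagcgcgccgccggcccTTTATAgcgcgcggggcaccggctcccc

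The AP-1 match began 186 bases before the start in PLAUR and 87 bases before it in TFPI2. F3 had matches at 223 and 210 bases. GC box letters (GGGCGG) were found in 4 of the 6 promoters, those of SERPINE2, F3, TFPI2 and PROCR, and in 42.6% of all promoters. F3 had 4 of them. The NF-kB letters in the stricter form (GGGNNTTCC) were found in TFPI2 alone, 151 bases before the start, and in 5.8% of all promoters, and the looser form (GGGNNNTCC), which includes the stricter one and was found in 18.4% of all, added no gene. The TATA box letters (TATAAA) were found in F3 and PROCR, 28 and 82 bases before the start, and in 10.7% of all promoters. SERPINE2 had E-box letters (CACGTG), which were found in 6.3% of all promoters, and PLAU had none of the motifs. A match describes letters and not a bound site.

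PLAT encodes tissue-type plasminogen activator, a protease that cuts plasminogen and does so best where fibrin is present. It was at 115 and 116 TPM in the niraparib libraries, against 22.6 and 21.9 TPM in the DMSO libraries. The groups were far apart, and the replicates of each differed by less than 1 TPM. The mean was 5.20 times as high with niraparib (116 ± 0.530 TPM, against 22.3 ± 0.523 TPM with DMSO, SD, n = 2 each), a difference of 2.33 on the log2(TPM + 1) scale. Of 13377 genes that reached 1 TPM in at least 2 libraries, 6 had a higher value of this difference. PLAT ranked 1190 and 1207 by TPM in the niraparib libraries and 4820 and 4915 in the DMSO libraries.

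PLAU encodes urokinase, the activator that works at the cell surface. Its TPM was by far the highest of the 8 genes, at 2506 and 2465 TPM with niraparib and 1984 and 1975 TPM with DMSO. The groups did not overlap, and the ratio of means was 1.26. PLAU ranked 60 and 62 of all entries in the niraparib libraries and 80 in both DMSO libraries. The gain in mean PLAU was larger in TPM than that of PLAT, although its ratio was smaller. PLAT made up 4.40% and 4.50% of the summed TPM of both activators with niraparib, against 1.13% and 1.10% with DMSO.

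PLAUR encodes the receptor that holds urokinase at the membrane. It was at 282 and 275 TPM with niraparib and 210 and 217 TPM with DMSO. Both niraparib libraries were above both DMSO libraries, with a ratio of means of 1.31. PLAU and PLAUR were higher by similar ratios, so that PLAU over PLAUR was 8.89 and 8.97 with niraparib and 9.46 and 9.11 with DMSO.

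SERPINE2 encodes protease nexin-1, a serpin that inhibits thrombin, urokinase and tissue-type plasminogen activator. It had the lowest TPM of the 8 genes. Its TPM was 9.15 and 11.9 with niraparib and 9.27 and 8.64 with DMSO. The groups overlapped, since the lower niraparib library lay between both DMSO libraries. The ratio of means of 1.17 was within the spread of the niraparib replicates.

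**Figure D1:**
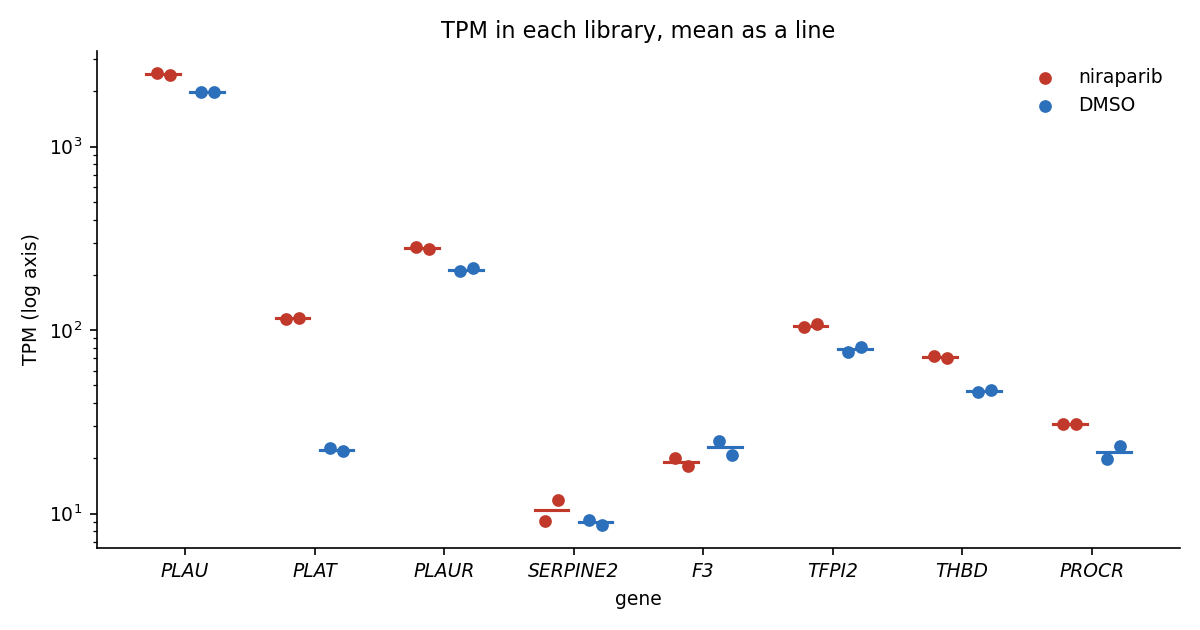
TPM on a log axis for each of the 8 genes, with 1 point per library (2 niraparib libraries in red at the left, 2 DMSO libraries in blue at the right) and the group mean as a line. PLAT shows the widest gap, 116 against 22.3 TPM on average, SERPINE2 is the gene whose groups overlap, and F3 is lower with niraparib.

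F3 encodes tissue factor. It was at 20.1 and 18.3 TPM with niraparib and 24.9 and 20.9 TPM with DMSO. Both niraparib libraries were below both DMSO libraries, but the gap of the nearest pair was smaller than the gap between the DMSO replicates. The ratio of means was 0.836, and the difference of -0.24 on the log2(TPM + 1) scale was -0.12 without DMSO replicate 1.

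TFPI2 encodes a Kunitz-type inhibitor of plasmin and of the complex of tissue factor with factor VIIa. It was at 104 and 108 TPM with niraparib and 76.0 and 80.9 TPM with DMSO, without overlap and with a ratio of means of 1.35. F3 and TFPI2 thus differed between the treatments in opposite directions. TFPI2 over F3 was 5.18 and 5.91 with niraparib, against 3.05 and 3.87 with DMSO.

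THBD encodes thrombomodulin, the thrombin receptor that starts the protein C pathway. It was at 72.4 and 70.7 TPM with niraparib and 45.9 and 47.1 TPM with DMSO. The gap between the groups was far wider than the gap between replicates. The ratio of means of 1.54 was second to that of PLAT. THBD over F3 was 3.61 and 3.87 with niraparib, against 1.84 and 2.25 with DMSO.

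PROCR encodes the endothelial protein C receptor, which presents protein C to thrombomodulin. It was at 30.9 and 30.6 TPM with niraparib and 19.9 and 23.4 TPM with DMSO. The groups did not overlap, and the DMSO replicates were further apart than the niraparib replicates. The ratio of means was 1.42.

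**Figure D2:**
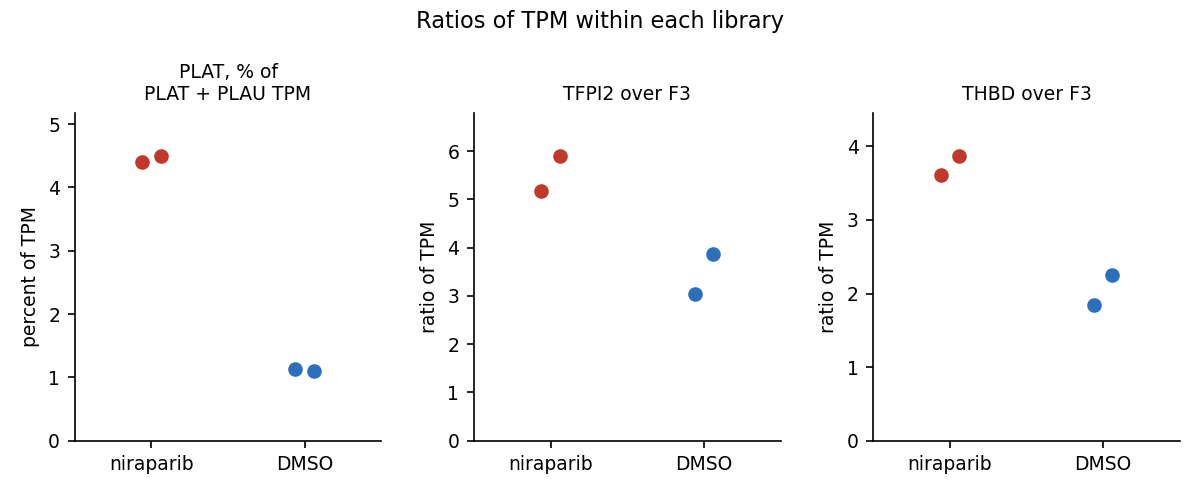
Ratios of TPM within each library, with 1 point per library (niraparib in red at the left, DMSO in blue at the right) on axes that start at 0. From left to right the panels show PLAT as a percentage of PLAT plus PLAU, TFPI2 over F3 and THBD over F3, and the niraparib libraries are higher in each panel.

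In order of their ratios, PLAT stood apart, with every niraparib library 5.10 to 5.31 times any DMSO library. THBD followed at 1.5 to 1.58 times. The ranges of PROCR (1.31 to 1.56), TFPI2 (1.29 to 1.42), PLAUR (1.27 to 1.34) and PLAU (1.24 to 1.27) each overlapped that of the gene before, so the order among these neighbours, and between THBD and PROCR, was not beyond their spread. SERPINE2 ranged from 0.987 to 1.37 and F3 from 0.732 to 0.959. By TPM, PLAT came after PLAU and PLAUR with niraparib. With DMSO its libraries lay among those of F3 and PROCR, and the order of these 3 genes was not beyond their spread.

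Without overlap between the groups, 6 of the 8 genes were higher with niraparib and 1 was lower. Over all 13377 genes tested, 41.9% were higher and 29.0% were lower without overlap. Nothing is read from this count, because TPM of the same libraries chose the genes. The median difference was 0.40 on the log2(TPM + 1) scale for the 8 genes and 0.07 for all genes tested. Among the alternatives to the main fit, the filters, the simpler priors and the replicate block leave these differences unchanged. Leaving out a library cannot change the sign of a gene whose groups do not overlap. Little is therefore read from each of the 8 genes keeping its sign under all 15 alternatives. The range over them was 2.17 to 2.37 for PLAT, 0.40 to 0.63 for THBD, 0.33 to 0.61 for PROCR, 0.33 to 0.77 for TFPI2, 0.15 to 0.41 for PLAUR, 0.16 to 0.34 for PLAU, 0.03 to 0.37 for SERPINE2 and -0.37 to -0.08 for F3.

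**Figure D3:**
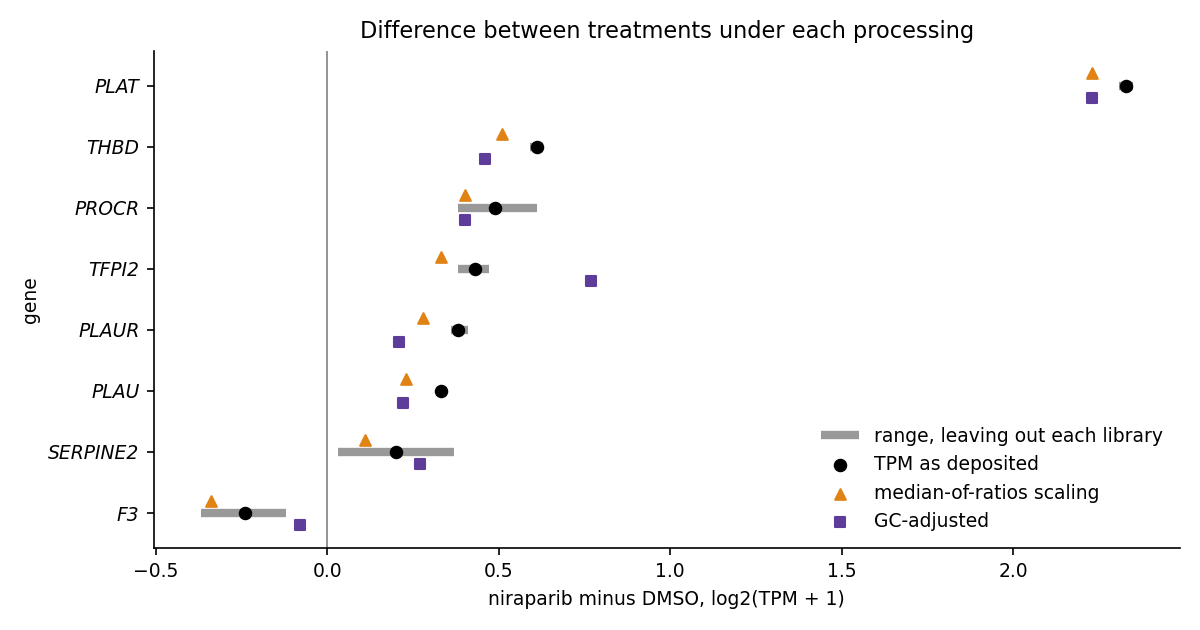
Niraparib minus DMSO on the log2(TPM + 1) scale for each gene as deposited (black), with median-of-ratios scaling (orange) and after GC adjustment (purple), and the range when each library in turn is left out (grey bar). PLAT stays above 2 in each form, TFPI2 is larger after GC adjustment (0.77 against 0.43), and SERPINE2 (0.20) and F3 (-0.24) lie nearest to 0 as deposited.

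Over all genes, log2 differences were higher where transcripts were richer in GC (Spearman's rho 0.517 over 12518 genes of the same 4 libraries, given as a description). Genes were placed in 10 bins of equal size by GC content. The 8 genes lie between 37.1% and 55.9% GC, below the 2 bins richest in GC. TFPI2 had 37.1% GC, in a bin with a median of -0.27, and was 0.43 higher, or 0.77 after the GC trend of each library was removed. F3 had 42.8% GC, in a bin with a median of -0.11, and was at -0.24, or -0.08 after GC adjustment. PLAUR had 55.9% GC and was at 0.38, or 0.21 after GC adjustment, while its bin had a median of 0.25. PLAU, PROCR, PLAT and THBD had 52.8%, 52.4%, 52.3% and 54.7% GC, in a bin with a median of 0.185. Their GC-adjusted differences were 0.22, 0.40, 2.23 and 0.46. SERPINE2 had 45.7% GC and was at 0.20, or 0.27 after GC adjustment. What part the GC trend has in these values was not tested.

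**Figure D4:**
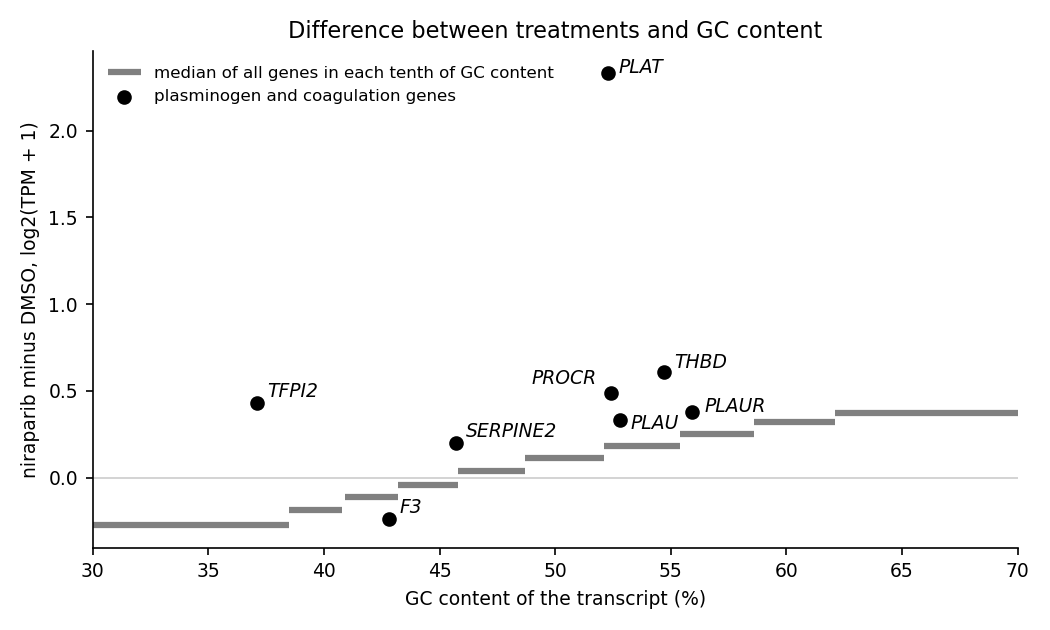
Niraparib minus DMSO on the log2(TPM + 1) scale against the GC content of the transcript, with the 8 genes as points and the median of all genes in each of 10 GC bins as grey bars. The grey bars go up from -0.27 to 0.37, F3 lies below the bar of its bin, and the other genes lie above theirs.

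The genes lie on 7 chromosomes of GRCh37, the build of the methods. PLAT lies on chromosome 8 from 42032236 to 42065227, on the minus strand, with 14 exons in its canonical transcript. THBD, from 23026270 to 23030309 on the minus strand, and PROCR, from 33759875 to 33804043 on the plus strand, both lie on chromosome 20. THBD has 1 exon. PLAU lies on chromosome 10 from 75668935 to 75677254, on the plus strand, and overlaps C10orf55 on the other strand. C10orf55 was at 16.1 and 14.1 TPM with niraparib and 17.1 and 19.1 TPM with DMSO. PROCR overlaps MMP24OS on the other strand, which was at 58.8 and 63.3 TPM with niraparib, against 45.8 and 44.6 TPM with DMSO. MMP24OS was more abundant than PROCR in every library and was also higher with niraparib. No source states that strand was used in counting, so reads of PROCR and MMP24OS may not be fully separated.

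The genes most like PLAT across the 4 libraries, by the Euclidean distance between deviations of log2(TPM + 1) from each gene's mean, were APOE (distance 0.232), TRIB3 (0.295) and LCN2 (0.323). APOE encodes a lipid carrier and was at 23.2 and 26.1 TPM with niraparib and 3.91 and 4.76 TPM with DMSO. TRIB3 encodes a pseudokinase of the stress response and was at 100.1 and 99.99 TPM with niraparib and 23.0 and 24.01 TPM with DMSO. LCN2 encodes lipocalin-2, an iron-siderophore carrier, and was at 74.2 and 76.8 TPM with niraparib and 17.2 and 18.5 TPM with DMSO. With 2 groups of 2 libraries, this likeness mainly reflects the size of the difference.

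Other genes of the plasminogen system were taken from a list, without the genes above. LRP1, the endocytic receptor that clears complexes of activators with their inhibitors, rose to 18.0 and 17.6 TPM with niraparib, against 8.95 and 7.56 TPM with DMSO (log2 fold change 1.03, standard error 0.116, limma adjusted p = 0.00487). MRC2, a collagen receptor that associates with urokinase and its receptor, rose to 25.0 and 23.4 TPM, against 11.3 and 12.4 TPM with DMSO (log2 fold change 0.97, standard error 0.0954, limma adjusted p = 0.00364). Both values were smaller after GC adjustment, at 0.78 for LRP1 and 0.68 for MRC2, or 0.72 and 0.61 when centred. IGF2R, a receptor that binds plasminogen and the urokinase receptor, rose by 0.40 (limma adjusted p = 0.0233). It was 0.33 to 0.47 higher when a library was left out, although none of these fits passed (adjusted p up to 0.109), and 0.30 higher with median-of-ratios scaling (adjusted p = 0.0503). Of 28 genes listed, 18 were measured and 14 were tested. Of these 9 rose, 3 fell and 2 did not pass the limma test, and their median log2 fold change was 0.18. Over all 13377 genes, 20.8% rose and 11.7% fell, with 64.1% of the calls higher, or 47.2% with median-of-ratios scaling. VLDLR, a lipoprotein receptor that takes up complexes of urokinase with its inhibitors, is among the 9 but passed the filter on low values only through the niraparib libraries (1.72 and 1.44 TPM, against 0.54 and 0.48 TPM with DMSO), and 8 rose where every library had to reach 1 TPM. Where a library was left out, the lone library was assumed to vary like the other group, whose 2 libraries alone gave each gene's own spread, and fewer genes passed over the whole table (1197 to 1616 rose, against 2780 with all libraries). The count of listed genes that rose was then 4 without either niraparib library, 3 without either DMSO library. It was 4 with median-of-ratios scaling and 5 with upper-quartile scaling, where 1998 and 2201 of all 13377 genes rose.

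S100A10 and ANXA2 form a complex that binds plasminogen and tissue-type plasminogen activator. S100A10 rose to 585 and 622 TPM, against 540 and 528 TPM with DMSO (log2 fold change 0.18, limma adjusted p = 0.0304), but its value of 0.07 with median-of-ratios scaling did not pass (adjusted p = 0.24), and the call was lost without niraparib replicate 2, DMSO replicate 1 or DMSO replicate 2 (0.13 to 0.22 over the libraries left out, adjusted p up to 0.120). ANXA2 was at 1712 and 1844 TPM with niraparib and 1853 and 1891 TPM with DMSO and did not pass the test (log2 fold change -0.08, limma adjusted p = 0.216), although it did with median-of-ratios scaling (-0.18, adjusted p = 0.0314). ENO1, a glycolytic enzyme that also binds plasminogen, fell by 0.23 on the log2 scale (limma adjusted p = 0.00512). Its value was -0.37 after GC adjustment, and the call was lost in limma with simpler priors (adjusted p = 0.0878). PLGRKT, a membrane receptor for plasminogen, was at 38.9 and 42.8 TPM with niraparib and 52.7 and 49.1 TPM with DMSO. It fell by 0.31 (limma adjusted p = 0.0357), and the value was -0.13 after GC adjustment (adjusted p = 0.196). It stayed between -0.38 and -0.25 when a library was left out, although none of these fits passed (adjusted p up to 0.161). HSPA8, a cytosolic chaperone, was at 701 and 700.2 TPM with niraparib and 1232 and 1188 TPM with DMSO and fell by 0.79 (limma adjusted p = 0.00109). KRT8, an intermediate filament protein that binds plasminogen, rose by 0.14 (limma adjusted p = 0.0209), but its value was -0.10 after GC adjustment and 0.03 with median-of-ratios scaling (adjusted p = 0.37 for the scaling). Its call did not hold without niraparib replicate 1, DMSO replicate 1 or DMSO replicate 2 (0.12 to 0.15 over the libraries left out, adjusted p up to 0.0962). F12, the contact factor that can activate plasminogen, rose to 23.8 and 23.6 TPM, against 16.0 and 14.8 TPM with DMSO (log2 fold change 0.59, limma adjusted p = 0.00853), and did not pass after GC adjustment (0.27, adjusted p = 0.080).

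**Figure D5:**
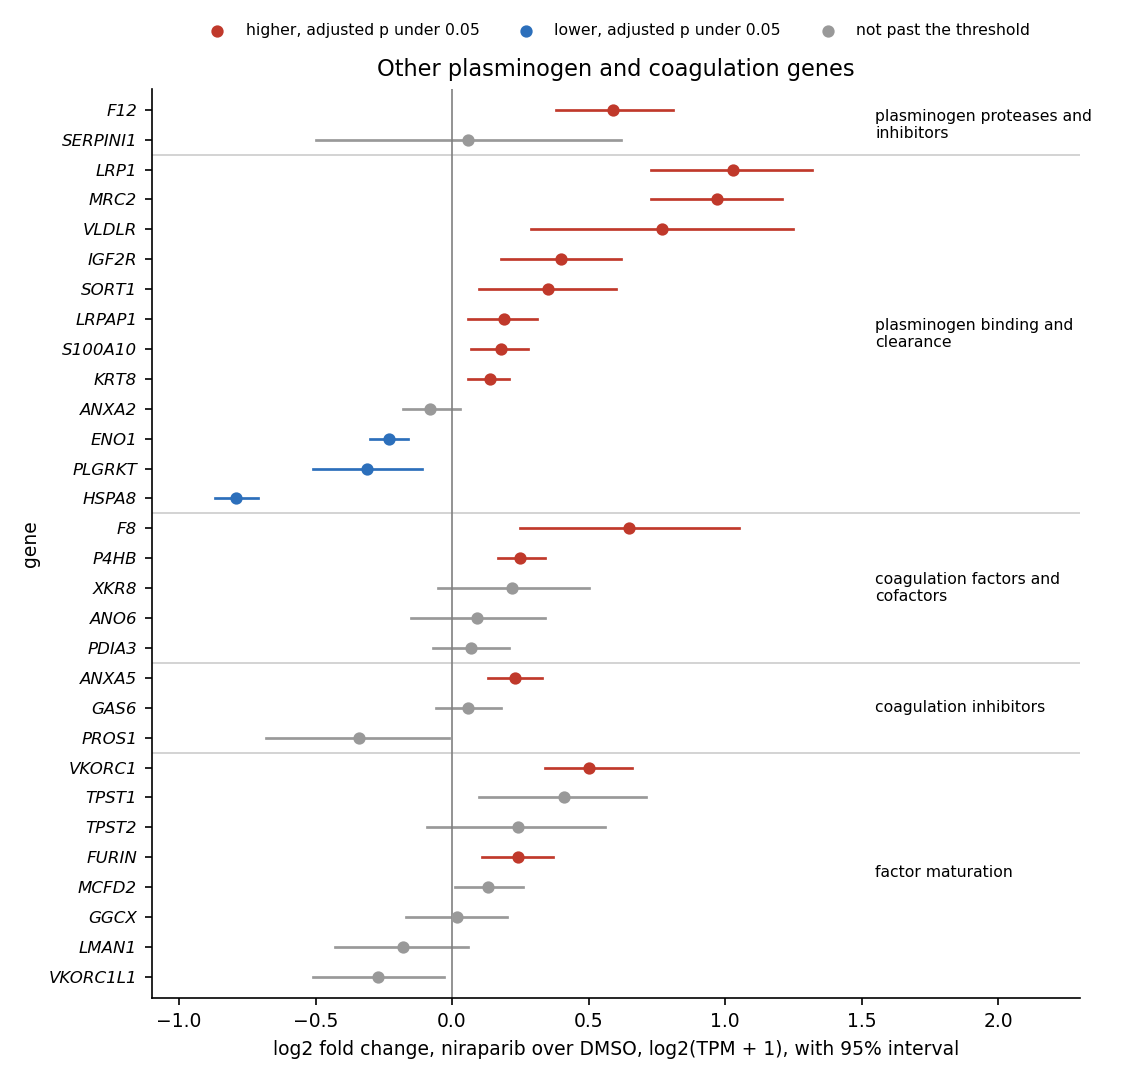
Log2 fold change of niraparib over DMSO on the log2(TPM + 1) scale with its 95% interval from limma for the 30 other plasminogen and coagulation genes tested, in 5 groups from top to bottom. Genes that rose are red (14), genes that fell are blue (3) and genes that did not pass the test are grey (13), and LRP1 and MRC2 lie furthest to the right at 1.03 and 0.97.

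VKORC1, the enzyme that regenerates vitamin K for the carboxylation of clotting factors, rose to 138.8 and 138.9 TPM with niraparib, against 93.2 and 103 TPM with DMSO (log2 fold change 0.50, standard error 0.063, limma adjusted p = 0.00604). Its value was 0.28 after GC adjustment (adjusted p = 0.0256). F8, the cofactor of factor IX, rose to 3.81 and 3.43 TPM, against 2.06 and 1.83 TPM with DMSO (log2 fold change 0.65, limma adjusted p = 0.0329), and was 0.59 to 0.71 higher when a library was left out, although none of these fits passed (adjusted p up to 0.130). P4HB, a protein disulfide isomerase, rose by 0.25 (limma adjusted p = 0.00709), or by 0.05 after GC adjustment (adjusted p = 0.338). ANXA5, which covers phosphatidylserine at the surface, rose by 0.23 (limma adjusted p = 0.0129), with the call lost without niraparib replicate 2 or DMSO replicate 2 (0.20 to 0.26 over the libraries left out, adjusted p up to 0.0661) and with median-of-ratios scaling (0.13, adjusted p = 0.0662). Its value was 0.37 after GC adjustment. FURIN, a proprotein convertase, rose by 0.24 (limma adjusted p = 0.0224), but its value was -0.04 after GC adjustment. The call for FURIN did not hold without niraparib replicate 1, niraparib replicate 2 or DMSO replicate 1 (0.20 to 0.28 over the libraries left out, adjusted p up to 0.109), nor with median-of-ratios scaling (0.14, adjusted p = 0.0866). ANO6, a scramblase that exposes phosphatidylserine, was at 26.6 and 30.7 TPM with niraparib and 27.3 and 26.1 TPM with DMSO and did not pass the test (log2 fold change 0.09, limma adjusted p = 0.488). Of 40 genes of the coagulation lists, 20 were measured and 16 were tested, of which 5 rose and 11 did not pass, beside 20.8% of all genes that rose and 11.7% that fell. None fell in limma, and 2 were lower at an unadjusted p under 0.05, PROS1, a cofactor of protein C (-0.34), and VKORC1L1, a paralog of VKORC1 (-0.27). The count that rose was 3 without niraparib replicate 1, 2 without niraparib replicate 2, 3 without DMSO replicate 1, 2 without the trend and robust priors, and 3 with median-of-ratios scaling, and the median log2 fold change was 0.18. Among all 13377 genes, 2175 rose without the trend and robust priors and 1998 with median-of-ratios scaling, against 2780 in the main fit. The thrombin receptor F2R (0.68 and 0.85 TPM with niraparib, against 0.43 and 0.74 TPM with DMSO) and the protease-activated receptor F2RL1 (0.89 and 0.85 TPM, against 0.38 and 0.49 TPM with DMSO) were below 1 TPM in all libraries and were not tested.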

How the data were processed

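Total RNA of Cal-62 cells was sequenced in 2 niraparib and 2 DMSO libraries, grouped by the treatment label. In the methods, reads were trimmed with Trim Galore and STAR was used for alignment to hg19, whereas the processing notes of the submitters list HISAT2 with hg38 and mm10 beside Trim Galore. The deposited values are TPM computed by the authors within each library, although the table is named as counts, and the tool and annotation behind TPM are not given in the sources used here. TPM keeps no depth, so only the spread between libraries measures precision.

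Genes were kept where 2 or more libraries reached 1 TPM (13377 genes). Their log2(TPM + 1) was fitted with limma 3.58.1 (R 4.3.3), using its trend and robust options and a two-sided test. Benjamini-Hochberg adjustment covered every gene kept, and the threshold was 0.05. The 95% intervals come from the same fit. Fold changes on this scale understate those of low genes. GC content is that of the canonical GENCODE release 44 transcript lifted to GRCh37, or of the longest where none is tagged, for 14842 of 16717 entries (14652 by symbol and 190 by RefSeq synonym). GC adjustment subtracted from each library a loess trend (span 0.5) of its deviations from the gene means against GC content. A listed gene and a marker are not reported here. Of the entries, 12 repeat a symbol. The procedure was tested on simulated data.

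The members and lists were chosen with earlier results of these data known. Of the lists, up to 6 genes past the threshold with the smallest p, and ANXA2, S100A10, LRP1, PLGRKT, F2R, F2RL1 and ANO6, were named, and the 3 genes nearest to PLAT among those whose mean log2(TPM + 1) reached 3. COL1A1, CD14, CSF1R, LYZ and the mesenchymal and epithelial markers other than KRT8 were named after their values were seen. So were C10orf55, MMP24OS, PROS1, VKORC1L1, VLDLR and GAS6. Alternatives were 2 scalings, 2 filters, pseudocounts of 0.1 and 0.5, simpler priors, the replicate number as a block, leaving out each library and GC adjustment, alone and with the block. A centred GC adjustment was added after the data were seen.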

Additional observations from a re-analysis of the deposited data

How the results depend on the processing

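In the plasminogen lists 9 genes rose and 3 fell. The count that rose was 4 with median-of-ratios scaling, 5 with upper-quartile scaling, 5 after GC adjustment with the replicate block, and 3 to 4 when a library was left out. The count that fell was 1 when limma used simpler priors, with no trend. In the coagulation lists 5 rose and none fell. The count that rose was 3 with median-of-ratios scaling, 2 with the simpler priors, and 2 to 4 when a library was left out. The count that fell was 1 with either scaling (VKORC1L1) and 1 after GC adjustment, with or without the replicate block or centring (GAS6). In the main fit VKORC1L1 was at -0.27 (limma adjusted p = 0.0853) and GAS6 at 0.06 (limma adjusted p = 0.387). Their values under these alternatives are not given here. The cause of these changes was not tested. KRT8 turned to -0.10 after GC adjustment and with the replicate block added, and to -0.16 when centred (limma adjusted p = 0.0113). FURIN turned to -0.04 in both uncentred forms and to -0.10 when centred, and P4HB turned to -0.01 when centred. Of the 14 genes named by the rule that passed the limma test, LRP1, MRC2, HSPA8 and VKORC1 passed it in the same direction under all 15 alternatives. Pseudocounts of 0.1 and 0.5 and the filter on every library changed the call of none of the 16 genes named by the rule and tested. VLDLR, named outside the rule, leaves the test under the filter on every library. With the simpler priors PLGRKT, S100A10, ENO1, KRT8, P4HB, ANXA5 and FURIN did not pass. A fit without 1 library takes each gene's own spread from the other group alone.

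The replicate numbers do not pair the libraries in the labels, and deviations of same-numbered libraries had a correlation of -0.0148 across 13377 genes. With the replicate block 7 plasminogen genes rose and 2 fell, and 4 coagulation genes rose and 0 fell in limma, and PLGRKT and F8 did not pass (adjusted p = 0.0591 and 0.0522). TPM gives no depth, so how far depth limits low genes such as SERPINE2 is unknown.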
